A study of Danio rerio with 6 samples.

Results

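Complement genes and a few acute phase genes were followed in the larval zebrafish (Danio rerio) liver at 7 days post fertilization, in animals carrying a foxn3 transgene and in their wild-type siblings. Members were the genes of the deposited count table whose symbol is that of a complement component, factor or relative, or of an acute phase gene, matched by the start of the symbol and ignoring case. This gave 50 of 21589 genes. Of these, 11 are C1q-domain relatives that are not complement components, and 2 share only the first letters of their names with mannose-binding lectin. The rest are complement components, regulators or receptors and 3 genes grouped by symbol as acute phase. Liver RNA of foxn3 transgenic larvae gave 3 libraries, and liver RNA of wild-type larvae gave the other 3. The sources used here name neither the promoter that drives the transgene nor the number of larvae behind a library.

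Complement is a cascade of plasma proteins made mostly by hepatocytes. The classical pathway starts with C1q and the proteases C1r and C1s, the lectin pathway with mannose-binding lectin and MASP proteases, and both cleave C4. The alternative pathway uses factor B, factor D and properdin, and all of them meet at C3, after which C5 to C9 build the membrane attack complex. Factor H and its relatives restrain C3 activation. Acute phase genes are those whose liver output shifts in inflammation, largely under IL-6, STAT3 and C/EBP control. Teleost fish have several copies of many of these genes, C3 among them.

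Total counts were 11356831, 12550954 and 10891720 in transgenic libraries 1 to 3 and 10884596, 12214349 and 7732478 in wild-type libraries 1 to 3. foxn3 itself had 167, 207 and 220 CPM (counts relative to the library total scaled by TMM, on edgeR's usual scale) in transgenic livers against 27.1, 18.9 and 43.1 CPM in wild-type livers. Its log2 fold change was 2.74 ± 0.30 (SE), and the edgeR adjusted p was 0.11, with 1.1e-14 to 1 over the alternatives. Hepatocyte markers held 5.24 to 6.17% of the counts of transgenic and 4.9 to 6.55% of those of wild-type libraries, with 10 of 12 names in the table and none at 0. fabp10a, a defining liver marker, stood on the authors' list of very high counts and so has no values here. Exocrine pancreas markers held 0.545 to 1.26% of transgenic and 0.356 to 0.806% of wild-type counts, the most in transgenic library 2, which also had the lowest scaling factor (0.848 against 0.967 to 1.07 in the rest). The part of pancreatic RNA in the results below was not tested. No label says that the libraries come from separate clutches or animals, so p-values measure the spread between these samples, which may be technical. In bulk liver RNA, fewer cells of a type and less RNA per cell cannot be told apart.

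The members together held 1.7, 1.81 and 1.7% of the counts of the transgenic libraries, against 1.92, 1.66 and 1.9% of the wild-type libraries. These ranges overlap. Levels per length spanned more than 3 orders of magnitude. In FPKM (counts per kilobase of exon and library size), 13 members averaged at least 100 over the 6 libraries, 22 at least 10 and 11 under 1. The highest was a C3 gene at 1285 ± 65.0 FPKM in transgenic and 1229 ± 152 FPKM in wild-type livers (SD, n = 3 each). c9, which forms the pore of the attack complex, came next at 990 ± 28.1 FPKM in transgenic and 1091 ± 172 FPKM in wild-type livers. It was followed by cfhl4 (895 ± 57.6 and 866 ± 48.2 FPKM) and cfb, complement factor B (677 ± 41.7 and 718 ± 41.9 FPKM), each in the same order of groups. In each of these 4 genes the difference between the group means was smaller than the larger of the 2 SDs.

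**Figure D1:**
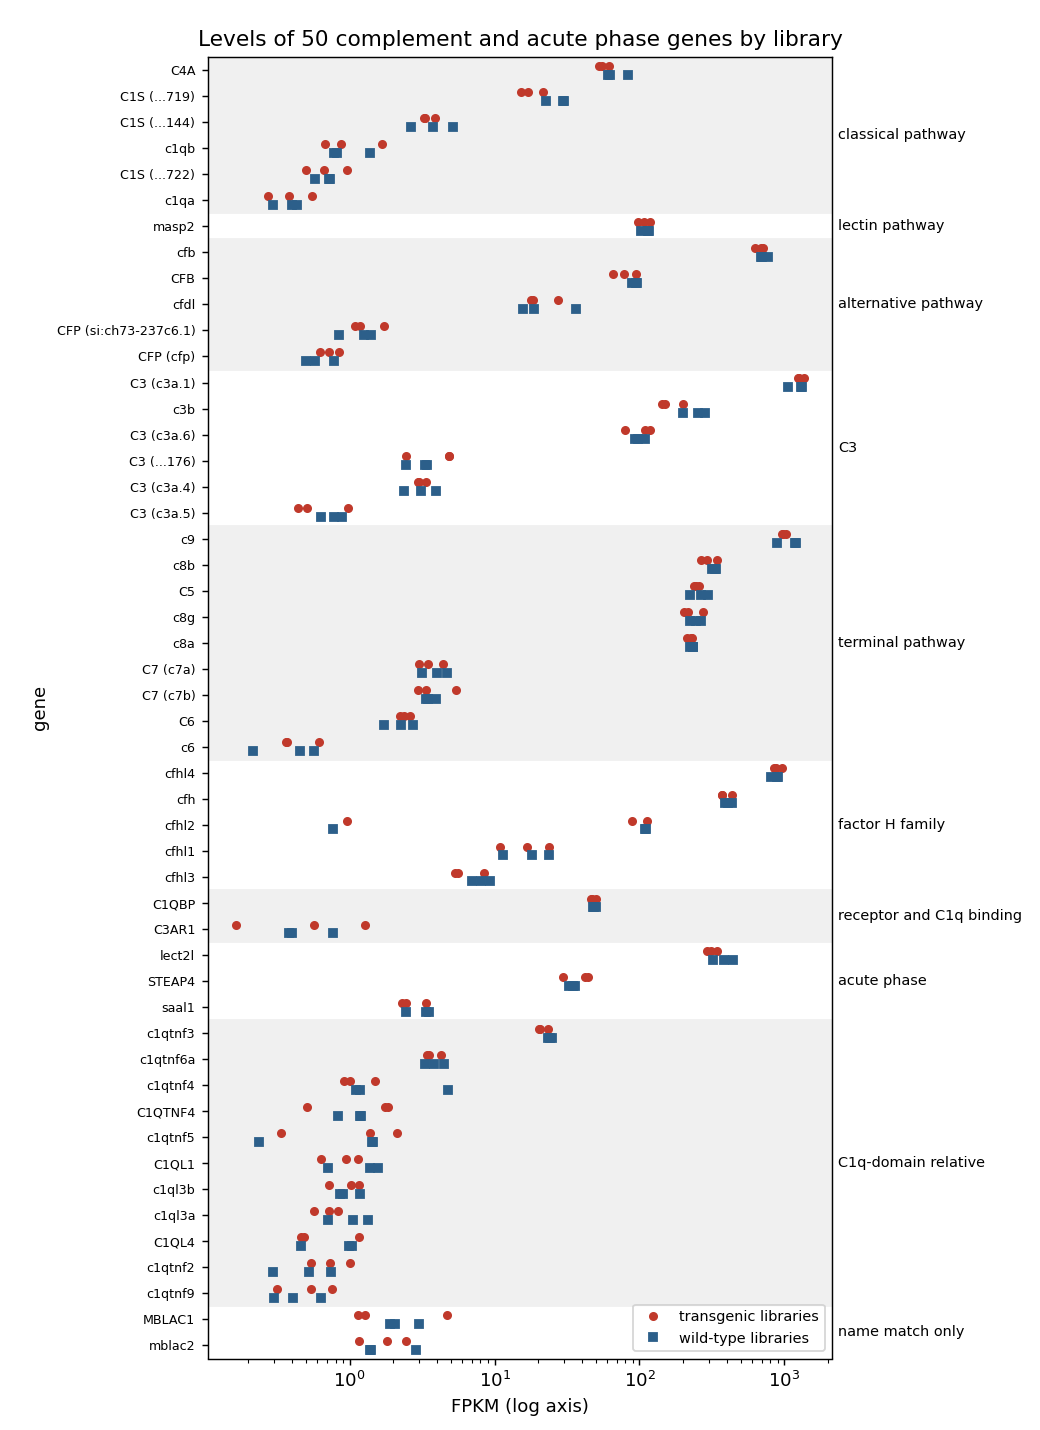
FPKM (log axis) of the 50 genes in each library, with transgenic libraries as circles above and wild-type libraries as squares, grouped by role and ordered by mean level. The groups overlap in most rows, the 13 most abundant genes average at least 100 FPKM, and cfhl2 splits into 2 levels within each group.

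Whether foxn3 changed the output of these genes was asked with edgeR's quasi-likelihood test over all genes. No member passed the test. Of the 50 members, 46 passed the filter on low counts, and 23 of these had positive and 23 negative log2 fold changes, with a median of 0.0032 against 0.0037 over all 19573 genes tested. No member passed an adjusted p of 0.05 and the smallest adjusted p among the members was 1. In edgeR 0 of the 19573 genes tested passed it, higher or lower. foxn3 itself, at an edgeR adjusted p of 0.11, did not pass, so the members do not stand out in this. At an unadjusted p under 0.05 edgeR had 0 members, where 2.25% of all genes tested had one, 0.869% higher and 1.38% lower in transgenic livers. DESeq2 had 1 member at that unadjusted level, c1qtnf4, which was lower. Over all genes 1.91% reached it in DESeq2, 0.616% higher and 1.29% lower. After adjustment DESeq2 had 0 members and 1 gene in all, foxn3 itself, which was higher (0.00463% of those tested). In no member did the 3 transgenic libraries lie wholly above or wholly below the 3 wild-type libraries in CPM, while this held for 6.45% of all genes tested, 3.31% higher and 3.15% lower in transgenic livers. The 95% interval of the log2 fold change lay within a 2-fold change in either direction for 33 of the 46 members, as it did for 66% of all genes tested. Among the 13 members of at least 100 FPKM it did so for 12, and the exception, c3b, reached -1.06. A p above the threshold does not show that the groups are alike, but for these 13 genes a change of more than 2.09-fold lies outside the intervals.

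**Figure D2:**
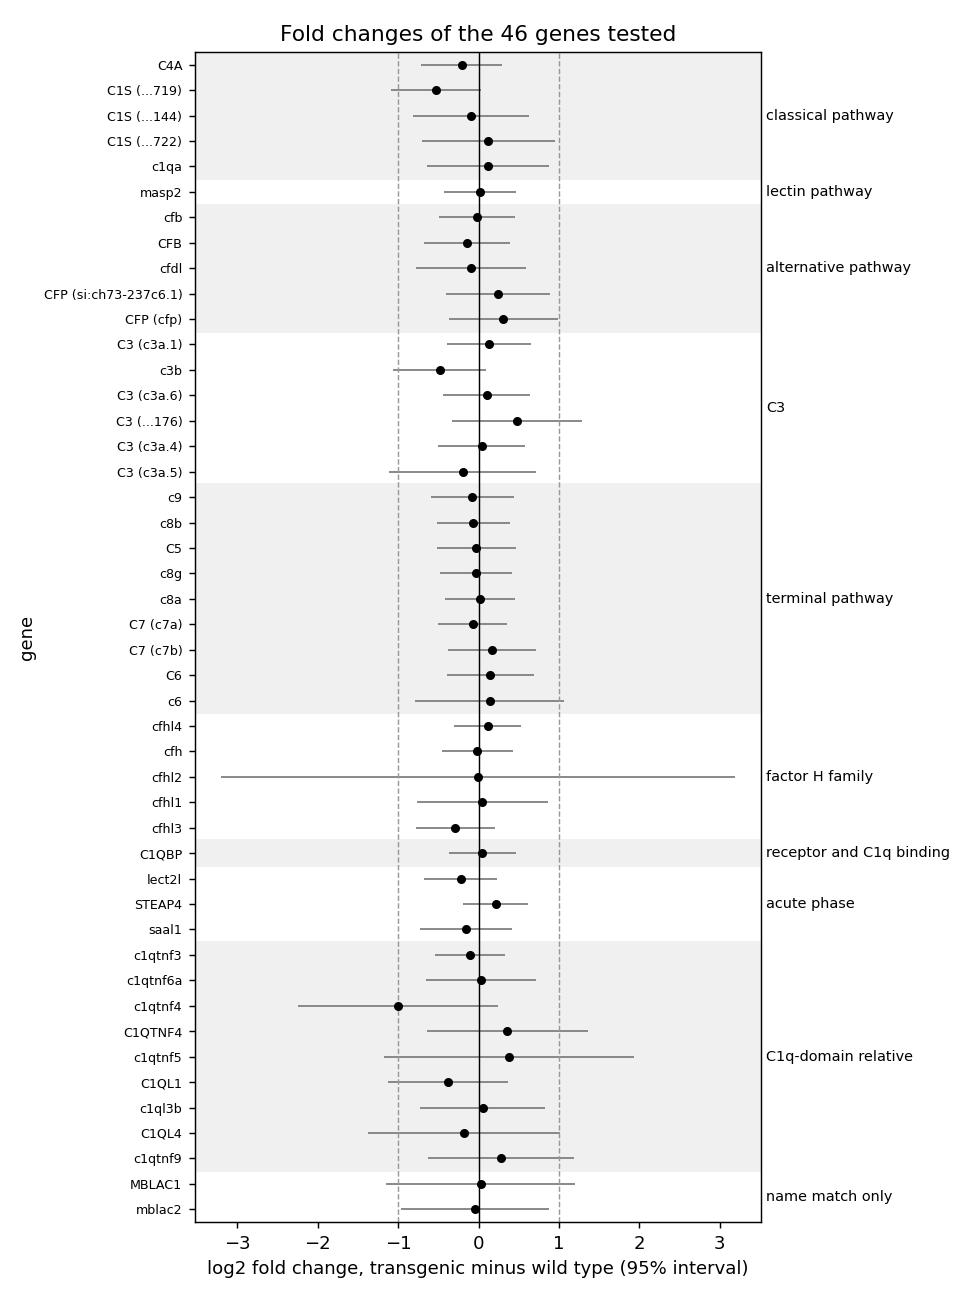
Log2 fold change (transgenic minus wild type, horizontal axis) with its 95% interval from edgeR for each of the 46 genes tested, grouped by role; dashed lines mark 2-fold changes. Every interval crosses 0, and the widest is that of cfhl2, at -3.21 to 3.19.

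C3 is the protein on which all complement pathways act, and 6 members are C3 genes, all within 1 stretch of chromosome 1 (56535324 to 56813502, Zv9). One of them, named c3a.1 in the reference names (ENSDARG00000012694, 56676992 to 56723747, minus strand), had 6014, 8135 and 6028 CPM in transgenic livers and 6539, 5029 and 6873 CPM in wild-type livers. The groups overlap, with transgenic library 2 highest and wild-type library 2 lowest. Its log2 fold change was 0.13 ± 0.23 (SE), with an edgeR interval of -0.40 to 0.66. c3b (ENSDARG00000087359, 56776458 to 56813502, plus strand), which the reference names call c3a.2, had 709, 1219 and 731 CPM in transgenic livers and 1424, 1228 and 1067 CPM in wild-type livers. Transgenic libraries 1 and 3 lay below every wild-type library, while transgenic library 2 lay among them. For c3b edgeR gave a log2 fold change of -0.48 ± 0.26 (SE), an unadjusted p of 0.092 and, after adjustment, a p of 1. With single libraries left out it ran from -0.79 (without transgenic library 2) to -0.35 (without transgenic library 1).

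The split of reads among the 6 C3 members stood apart between the groups, although neither c3b nor c3a.1 did alone. It leaves out c3b.1, c3b.2 and c3c, C3 genes outside the symbol rule. Of these, c3b.2 averaged 1661 CPM in transgenic and 1752 CPM in wild-type livers, more than c3b. c3b made up 10.3, 12.7 and 10.5% of the counts of the 6 C3 members in transgenic libraries, against 17.5, 19.1 and 13.1% in wild-type libraries. The 2 groups do not overlap, and the exact two-sided permutation p was 0.10, the smallest that 3 against 3 can give (0.33 adjusted over 10 ratios computed). The share of c3a.1 was the counterpart, at 87.5, 84.6 and 86.6% in transgenic and 80.3, 78.2 and 84.2% in wild-type libraries. c3a.1 over C5, both in FPKM, also stood apart, at 5.05, 5.3 and 5.33 in transgenic and 4.47, 4.69 and 4.91 in wild-type libraries (exact permutation p = 0.10, adjusted 0.33). The c3b share, the c3a.1 share and c3a.1 over C5 all draw on the same c3a.1 reads. These ratios were chosen after the counts of the members had been seen. Reads that match more than 1 C3 copy may have been split between them in counting, so the levels of single copies are uncertain.

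The other 4 C3 members were lower. c3a.6 (ENSDARG00000043719) had 134, 244 and 181 CPM in transgenic and 159, 163 and 198 CPM in wild-type livers. The remaining copies averaged 0.705 to 3.56 FPKM over the 6 libraries. One of these (ENSDARG00000090176) had the highest log2 fold change of all members, 0.48 ± 0.36 (SE), from 24, 52 and 45 counts in transgenic and 23, 36 and 22 in wild-type libraries. Its groups overlap, since transgenic library 1 was the lowest of all in CPM. Without that library the log2 fold change was 0.76, and without transgenic library 2 it was 0.19.

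In the classical pathway, C4A, whose protein is cleaved by C1s, had 264, 364 and 249 CPM in transgenic livers against 406, 292 and 313 CPM in wild-type livers. The 2 groups overlap, and the log2 fold change of -0.21 ± 0.22 (SE) became -0.41 without transgenic library 2 and -0.05 without wild-type library 1. A run of 3 neighbouring genes on chromosome 16 (34163238 to 34192603) are named C1S, after the protease that cleaves C4 and C2, and the first of them (ENSDARG00000075719) held 86.4 to 91.5% of their counts in transgenic and 90.9 to 94.6% in wild-type libraries. It had 23.6, 41.5 and 26.1 CPM in transgenic livers and 47.4, 34.4 and 49.7 CPM in wild-type livers. Transgenic libraries 1 and 3 lay below every wild-type library, and transgenic library 2 lay above wild-type library 2. In edgeR the log2 fold change was -0.53 ± 0.25 (SE). Its unadjusted p, 0.063, was the smallest of any member, and the log2 fold change ran from -0.83 (without transgenic library 2) to -0.38 (without transgenic library 1). Scaled to library totals alone, without TMM, its groups did not overlap (24.7, 35.1 and 27.7 against 48.8, 36.6 and 48 CPM, unscaled). At that scaling the groups were apart in 5.64% of all genes tested, 1.5% higher and 4.14% lower in transgenic livers, and the median log2 fold change of all genes was -0.05.

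The C1q chains, which recognise antibody and which macrophages make in mammals, were near the detection limit. c1qa had 27, 15 and 18 counts in transgenic and 19, 23 and 10 counts in wild-type libraries. For c1qb the counts were 18, 8 and 9 in transgenic and 8, 16 and 6 in wild-type libraries, and it did not pass the filter. Markers of macrophages and other leukocytes were also sparse, at 0.0071 to 0.011% of transgenic and 0.0065 to 0.0107% of wild-type counts over 26 genes, none at 0 in all libraries. The lectin pathway protease gene masp2 was far higher, with 314, 351 and 254 CPM in transgenic and 315, 266 and 328 CPM in wild-type livers. Those groups overlap fully, and the log2 fold change was 0.02 ± 0.20 (SE).

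A further 16 genes of the table carry clone-based or other names but match the same rule by their symbol in a reference table of names. 15 of them were tested, and 11 had negative log2 fold changes, with a median of -0.19. They include the second C4 gene and the partner protease of masp2. Among the 15 only these 2 had an unadjusted p under 0.05 in edgeR. In CPM they were also the only ones with groups that did not overlap, and both were lower in transgenic livers. Over all genes tested 2.25% had such a p, 1.38% on the lower side. Groups were apart in 6.45% of all genes tested, 3.15% on the lower side. c4 (chromosome 15, 31598255 to 31629790, minus strand) had 61.5, 94.1 and 72.6 CPM in transgenic against 106, 129 and 111 CPM in wild-type livers. For c4 the log2 fold change in edgeR was -0.60 ± 0.21 (SE, unadjusted p = 0.017, adjusted p = 1). MASP1 (chromosome 15, 35455423 to 35491594, plus strand) had 57.3, 66.5 and 43.3 CPM in transgenic against 98.9, 76.2 and 71.7 CPM in wild-type livers. For MASP1 it was -0.56 ± 0.22 (SE, unadjusted p = 0.028, adjusted p = 1). Both were looked up after the values of the members had been seen. Together the 16 genes held 1.15, 1.18 and 0.885% of the counts of transgenic libraries, against 1.34, 1.22 and 1.34% of wild-type libraries. These shares, taken without TMM, do not overlap, and the difference was not tested. Among the 16 genes crp5, described below, had the most counts. mbl2, a mannose-binding lectin gene, was sparse but for wild-type library 2, with 19, 9 and 20 counts in transgenic and 21, 93 and 7 in wild-type libraries. cfbl, next to cfb, had 46, 54 and 105 counts in transgenic and 30, 61 and 29 in wild-type libraries, with transgenic library 3 above the rest. The C3 genes c3b.1 and c3b.2, which lie apart from the others on chromosome 22, had log2 fold changes of -0.11 ± 0.25 and -0.08 ± 0.24 (SE).

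**Figure D3:**
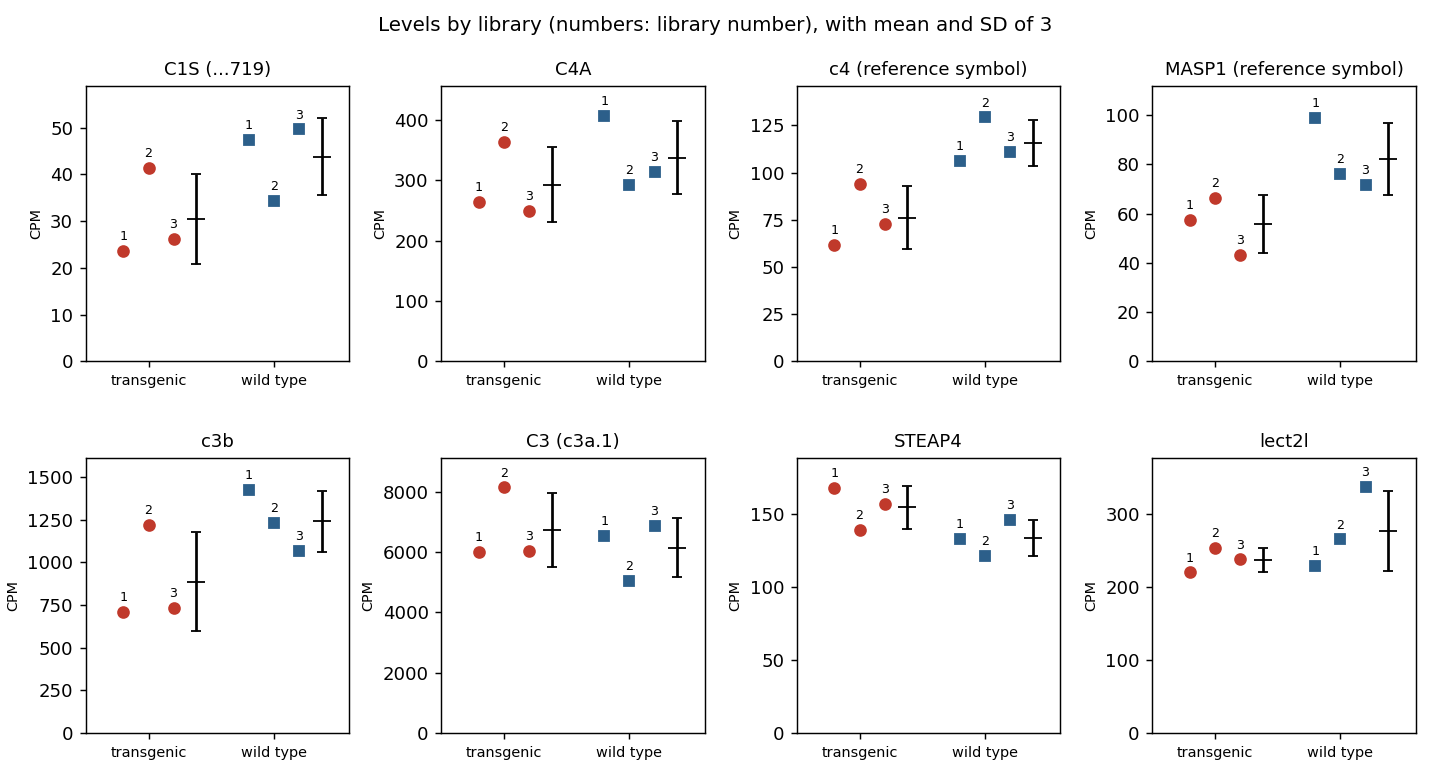
CPM of 8 genes in each library, transgenic left and wild type right, with library numbers beside the points and bars for mean and SD of 3. The groups are apart for c4 and MASP1, while for C1S and c3b transgenic library 2 lies among the wild-type libraries.

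No alternative pathway gene passed the test either. cfb (ENSDARG00000055278, chromosome 21), which supplies the protease of the C3 convertase, had 1657, 1987 and 1445 CPM in transgenic livers and 1654, 1577 and 1930 CPM in wild-type livers. The groups overlap, with transgenic libraries at both ends, and the log2 fold change was -0.02 ± 0.21 (SE). A second gene named CFB, on chromosome 15 (477413 to 495443), averaged 79.3 ± 14.4 FPKM in transgenic and 93.2 ± 3.86 FPKM in wild-type livers (SD, n = 3 each). The reference names call cfdl cfd, for factor D, which cleaves factor B. cfdl varied within the groups, at 23.7, 19.6 and 15.1 CPM in transgenic and 13.8, 31 and 17.4 CPM in wild-type livers. The wild-type libraries hold both the highest and the lowest of these 6 values. Properdin stabilizes the convertase, and the pair of CFP genes on chromosome 8 stayed under 2 FPKM in every library. The lower of the pair (ENSDARG00000094451) had a log2 fold change of 0.31 ± 0.30 (SE), with 0.06 without transgenic library 2 and 0.49 without wild-type library 2.

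The terminal components fell into 2 tiers. C5, which starts the attack complex, c8a, c8b and c8g, which form the C8 subunits, and c9 each averaged 227 to 1040 FPKM over the 6 libraries. C6, c6 and the 2 C7 genes, whose proteins join between C5b and C8, averaged 0.432 to 3.78 FPKM. The tiers do not meet in any library. C5 had 1207, 1556 and 1148 CPM in transgenic livers and 1484, 1087 and 1421 CPM in wild-type livers. For c9 the values were 2181, 2830 and 2166 CPM in transgenic and 2706, 1969 and 2903 CPM in wild-type livers. Both genes had overlapping groups, and their log2 fold changes were -0.03 ± 0.22 and -0.08 ± 0.23 (SE). Over the 9 terminal genes log2 fold changes ran from -0.08 to 0.17, with 4 above and 5 below 0, and every value was smaller than its own SE.

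The C8 subunits were at like levels per length. The FPKM of c8b over that of c8a was 1.34 ± 0.12 (SD, n = 3) in transgenic livers and 1.43 ± 0.015 (SD, n = 3) in wild-type livers, and c8g over c8a was 1.04 ± 0.14 and 1.06 ± 0.068 in the same order. The groups overlap in both ratios (exact permutation p = 0.40 and 0.90). c8a and c8b are neighbours on chromosome 2 (2506993 to 2533931), and c8g lies apart on chromosome 24. One C7 gene (ENSDARG00000057121, plus strand) and one C6 gene (ENSDARG00000057113, minus strand) overlap on chromosome 21, and no source states if strand entered the counting, so reads in the overlap cannot be assigned with certainty.

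The factor H family held the most variable member. Factor H itself, cfh, was steady at 1076, 1335 and 1251 CPM in transgenic and 1292, 1111 and 1292 CPM in wild-type livers, with a log2 fold change of -0.01 ± 0.19 (SE). cfhl2, which lies between cfhl3 and cfhl1 (chromosome 22, 24151023 to 24165307, plus strand), had 26, 3340 and 2291 counts in transgenic libraries 1 to 3 and 20, 3171 and 2035 counts in wild-type libraries 1 to 3. In CPM these are 2.2, 314 and 198 in transgenic and 1.79, 244 and 272 in wild-type livers. Library 1 of each group was at the lower end of a 176-fold range, and among the other 4 libraries the groups overlap. The log2 fold change between groups was -0.01 ± 1.43 (SE), with an interval of -3.21 to 3.19, so a difference between genotypes in this gene could not be assessed.

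**Figure D4:**
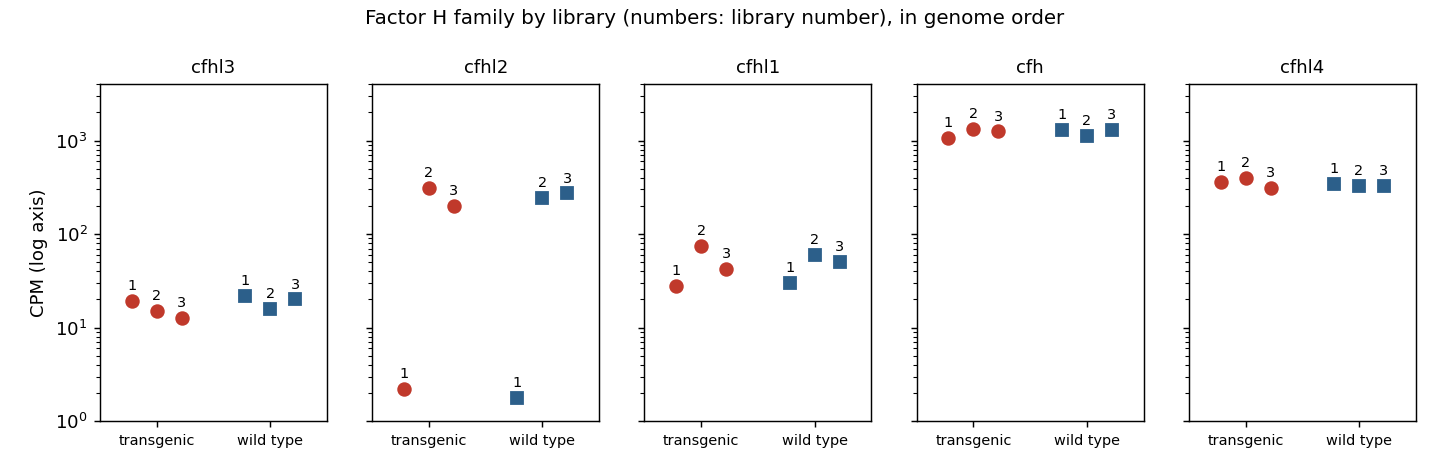
CPM (log axis) of the 5 factor H family genes in genome order, transgenic left and wild type right, with library numbers beside the points. cfhl2 is near 2 CPM in library 1 of both groups and at 198 to 314 CPM in the other 4 libraries, while cfh and cfhl4 vary little.

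In cfhl2 the low level was shared by both libraries numbered 1, across genotypes. Other genes were searched for this pattern with cutoffs written for cfhl2. Only pairs of libraries of the same number were counted, so its frequency in other pairs is not known. The genes searched include those too sparse to meet the cutoff. Over all 21589 genes, both libraries numbered 1 were at least 10-fold below each of the other 4 libraries, all of these at 5 CPM or more, for 3 genes, cfhl2 among them. The same was true of 0 genes for libraries numbered 2 and of 0 for libraries numbered 3, and the reverse, both libraries of a number at least 10-fold above all others, held for 0 genes. The other two, named after their values were seen, were dkeyp-1h4.9 on chromosome 18 (1.27, 36.9 and 36.1 CPM in transgenic and 1.07 to 37.0 CPM, lowest in library 1, in wild-type livers) and dkey-269o24.1 on chromosome 4 (3, 69 and 143 counts in transgenic and 5, 129 and 76 in wild-type libraries). The sources used here do not say what the library numbers stand for, and the cause of the pattern was not tested.

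Some neighbours of cfhl2 followed it in part. cfhl1 had 27.9, 75.1 and 42.4 CPM in transgenic and 30, 59.9 and 50.6 CPM in wild-type livers, again lowest in library 1 of each group, but over a 2.69-fold range. On the other side, the sparse ch211-207o17.9 was also lowest in library 1 of each group. It had 1.27, 4.23 and 2.94 CPM in transgenic and 1.96, 2.77 and 2.41 CPM in wild-type livers. ch211-207o17.8, sparser still, had 0 counts in library 1 of each group and in wild-type library 3. cfhl3, the family gene beyond them, was highest in library 1 of each group. It had 19.5, 15 and 12.7 CPM in transgenic and 21.8, 15.9 and 20.1 CPM in wild-type livers. The difference between groups was a log2 fold change of -0.29 ± 0.22 (SE), with -0.48 without transgenic library 1 and -0.15 without transgenic library 3. cfhl4 had 359, 402 and 312 CPM in transgenic and 341, 324 and 327 CPM in wild-type livers, and its log2 fold change was 0.11 ± 0.18 (SE). Its high FPKM rests on only 389 bp of counted exon. Beyond it, dkey-114d20.1 had 130, 132 and 67.3 CPM in transgenic and 134, 102 and 116 CPM in wild-type livers. Neither it nor the genes after it, dkey-114d20.2, dkey-114d20.3 and aspm, were lowest in library 1 of both groups. On chromosome 1, c3c (c3a.3 in the reference names), a C3 gene outside the symbol rule, was lowest in library 1 of each group. It had 197, 736 and 558 CPM in transgenic and 371, 669 and 578 CPM in wild-type livers. The share of all genes that were lowest in library 1 of each group was not counted. How reads that match more than 1 of these neighbouring factor H genes were counted is not stated. The levels of single genes are therefore uncertain.

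Of the 2 members that bind complement products, C3AR1, the receptor for the fragment C3a, had 2 to 14 counts in transgenic and 3 to 9 counts in wild-type libraries and was not tested. C1QBP, a mostly mitochondrial protein that can bind the heads of C1q, had 52.8, 69.6 and 51.4 CPM in transgenic and 54.2, 53.4 and 60.9 CPM in wild-type livers. The log2 fold change was 0.04 ± 0.19 (SE), and the groups overlap.

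Acute phase genes were few by symbol. The reference names call lect2l LECT2, after the liver-secreted chemotactic protein. lect2l had 220, 254 and 238 CPM in transgenic and 229, 266 and 337 CPM in wild-type livers. Wild-type library 3 stood above the rest, and the log2 fold change was -0.22 ± 0.20 (SE), or -0.06 without it and -0.34 without wild-type library 1. STEAP4, a metalloreductase of iron and copper, had 168, 139 and 157 CPM in transgenic and 133, 121 and 146 CPM in wild-type livers. Transgenic library 2 lay between wild-type values, and the log2 fold change was 0.21 ± 0.18 (SE). saal1 is named for a likeness to serum amyloid A and was grouped here by that name only. It had 48, 50 and 63 counts in transgenic and 46, 75 and 45 counts in wild-type libraries, with a log2 fold change of -0.16 ± 0.25 (SE). No symbol of the table begins with crp or leap2. By reference symbol, IDs of SAA2, crp1, crp7 and c1qc are among 8 that match the rule on the authors' list of genes with low counts, so they have no values here.

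C-reactive protein genes were found by reference symbol instead, in a cluster on chromosome 24. C-reactive protein is a pentraxin that binds microbial surfaces and recruits C1q. crp5 (39612812 to 39615888, minus strand) was more abundant per length than any member, averaging 8324 FPKM over the 6 libraries. It had 6904, 8281 and 4337 CPM in transgenic and 7450, 7051 and 8608 CPM in wild-type livers. In CPM transgenic library 3 was lowest, transgenic library 1 lay just below the wild-type range and transgenic library 2 within it. In FPKM, which are not scaled by TMM, the groups did not overlap. The values were 8497, 8285 and 5435 FPKM in transgenic and 9047, 8856 and 9821 FPKM in wild-type livers. Without TMM, 4.14% of all genes tested had groups apart in CPM on the lower side. crp2 had 619, 891 and 437 CPM in transgenic and 708, 739 and 781 CPM in wild-type livers, with transgenic libraries at both ends. Their log2 fold changes were -0.24 ± 0.27 and -0.19 ± 0.26 (SE), and that of crp3 was -0.31 ± 0.26. The sparse crp6 of the same cluster went the other way, at 0.34 ± 0.47 (SE). Its counts were 9, 23 and 22 in transgenic and 11, 23 and 7 in wild-type libraries. None had an unadjusted p under 0.05 in edgeR.

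The 11 C1q-domain relatives are not complement components: c1ql proteins act at synapses in mammals, and c1qtnf proteins are secreted factors. Of these 9 were tested, and levels were low, averaging 0.492 to 22.8 FPKM. The highest, c1qtnf3, had 29.3, 40.7 and 28.1 CPM in transgenic and 33.8, 33.7 and 38.4 CPM in wild-type livers, but the reference names give its ID as AMACR, a racemase of branched fatty acids and bile acid precursors. c1qtnf4 had the lowest log2 fold change of all members, -1.001 ± 0.55 (SE), and it rested on 1 library: the counts were 38, 38 and 54 in transgenic and 40, 48 and 122 in wild-type libraries, and the value was 0.07 without wild-type library 3. c1qtnf5 was sparse in library 3 of each group, with 17, 29 and 4 counts in transgenic and 17, 19 and 2 counts in wild-type libraries. The log2 fold change was 0.38 ± 0.69 (SE), or -0.36 without transgenic library 2. C1QL1 stood at -0.38 ± 0.33 (SE) and ran from -0.66 to -0.13 with single libraries left out. For c1qtnf9 the value was 0.28 ± 0.40 (0.00033 to 0.62), and for C1QTNF4 (ENSDARG00000087659) it was 0.36 ± 0.45 (0.11 to 0.69). MBLAC1, an enzyme gene that shares only letters with mannose-binding lectin, had 9, 9 and 32 counts in transgenic and 13, 23 and 10 in wild-type libraries and a log2 fold change of 0.03 ± 0.52 (SE).

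Other genes of these pathways were taken from 4 lists written with earlier results of the series known. In the list of complement receptors, regulators and inhibitors 15 genes were tested, 4 positive and 11 negative, at a median of -0.18 on the log2 scale, with 0 at an unadjusted p under 0.05. That list as written also holds phb, which is no complement gene. In the list of other lectin pathway genes 4 were tested, at a median of 0.0077, also with 0. That list as written also holds lman1 and lman2, which are no complement genes. Of 22 further acute phase genes 16 were positive, at a median of 0.07. Over all genes tested 9898 of 19573 were positive. The acute phase list as written mixes genes that rise with genes that fall in inflammation, so the signs have no single meaning. In it 1 gene had an unadjusted p under 0.05 in edgeR, on the lower side. It was cp, ceruloplasmin, a copper-carrying plasma protein: 842, 762 and 572 CPM in transgenic livers against 1791, 941 and 1196 CPM in wild-type livers, with a log2 fold change of -0.85 ± 0.27 (SE) and an unadjusted p of 0.012. The list of inducers of the acute phase response as written also holds inhibitors of that signalling. Its 27 genes tested were 13 positive and 14 negative, at a median of -0.03. Of these, 1 was lower at an edgeR unadjusted p of 0.013. This was socs3b, a feedback inhibitor of cytokine signalling that STAT3 induces, with 19.8, 22.6 and 23.3 CPM in transgenic livers against 26.9, 51.8 and 32 CPM in wild-type livers. The groups do not overlap for either gene, and both had an adjusted p of 1 in edgeR. With single libraries left out, cp ran from -1.04 to -0.56 (without wild-type library 1) and socs3b from -0.94 to -0.42 (without wild-type library 2). Over all genes tested, 1.38% were lower at that unadjusted p, and 3.15% had groups apart on the lower side.

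The authors' deposited table gave log2 ratios of -0.57 to 0.3 for the members, with a smallest adjusted p of 1 there. It also holds an exon readout, a chi-square test of independence between genotype and exons with the most divergent exon of a gene. In the authors' deposited table such an exon is given for 4 members, and 2 of the 50 had a score of at least 20 (a corrected p of at most 0.01), where 0.088% of all genes did. For c3b the authors' deposited table gave a log2 ratio of 1.08 at an exon at 56803304 to 56803396 (corrected p of 1.9e-19). For cfhl2 it gave -1.15 at the exon at 24151024 to 24151122 (corrected p of 2e-09), and in cfhl2 4 libraries supply nearly all reads. Among the genes found by reference symbol, the authors' deposited table gave MASP1 1.13 (corrected p of 1e-13 in the chi-square test). The stretch given for it, 35491584 to 35491592, is only a few bases beside the end of the gene at 35491594. A chi-square test on reads does not take in the spread between libraries, and single-library exon values were not used here. Such a test also gains power with read number, and c3b had 7969 to 15960 counts per library. The 0.088% of all genes was not matched for depth.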

How the data were processed

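Per the labels, total RNA was made into stranded Illumina libraries and sequenced as single-end reads. Reads were aligned with Novoalign to Zv9 and compared with DESeq2, per the submitters' processing notes. The counts deposited are alignments overlapping a gene by at least 1 bp, per the file headers, and FPKM deposited by the authors are counts scaled to exon length and library total. The authors' log2 ratios and their scores, which are phred-scaled corrected p-values, are in the deposited table. The regularized log2 values were not used. IDs on the authors' lists of low (10508) and high (6) counts are absent from the count table.

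Members and lists were chosen with earlier results of these data known. Reference symbols came from a table of names that matched 17069 IDs and 41 of the 50 members. Counts were tested in R 4.3.3 with edgeR 4.0.16 (TMM, filterByExpr, glmQLFit, glmQLFTest), transgenic minus wild type, two-sided, with Benjamini-Hochberg adjustment over 19573 genes, and checked on simulated data. Intervals are 95%, and SEs are the log2 fold change over the square root of F. CPM are relative to TMM-scaled totals. Between libraries of 1 group, chi-square per degree of freedom was 18.9 to 33.4, and none was counted as a duplicate. Alternatives were DESeq2 1.42.0, no filter, no TMM, a replicate block and each library left out.

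Values by library were given for the most abundant member of each role, members with an unadjusted p under 0.05 or groups apart, the 5 with the largest ratio of highest to lowest library (mean of at least 10 counts), the 5 highest and 5 lowest log2 fold changes, and acute phase genes. A few more were added after their values were seen.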

Additional observations from a re-analysis of the deposited data

How the results depend on the processing

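No member passed an adjusted p of 0.05 under any alternative run. Over all genes, 1 gene passed with DESeq2, 1 with the replicate block and 0 to 1 with single libraries left out. In each case it was foxn3 itself, on the higher side. Members at an unadjusted p under 0.05 were 1 lower with DESeq2 (c1qtnf4) and 2 lower without TMM (c3b and the main C1S gene). Over all genes 1.91% reached that level with DESeq2 and 2.04% without TMM (0.465% higher, 1.58% lower), against 2.25% (0.869% higher, 1.38% lower) in the fit reported. Without single libraries they were 0 to 1 higher and 0 to 2 lower, the highest counts of lower members coming without transgenic library 2, wild-type library 1 and wild-type library 2. The shares of all genes were 2.74%, 3.98% and 3.56% in these 3 settings and 1.18 to 2.66% in the other 3. Without TMM 2 members, C1S and c1qtnf3, had groups apart, both lower, where 4.14% of all genes were apart and lower. The median log2 fold change of the members ran from -0.11 to 0.07 without single libraries, with both ends within the spread between libraries. Without the C3 gene c3a.1 the members held 1.09% of transgenic and 1.2% of wild-type counts.

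Of the 23 members followed under every alternative, 14 kept their sign throughout. Without TMM the log2 fold change was -0.047 for masp2, -0.024 for C1QBP and -0.0021 for MBLAC1. Without single libraries it ran from -0.11 to 0.14 for masp2, -0.16 to 0.086 for cfb, -0.043 to 0.22 for c3a.1, -0.23 to 0.037 for c9, -0.80 to 0.56 for cfhl2, -0.12 to 0.13 for C1QBP, -1.35 to 0.074 for c1qtnf4, -0.36 to 0.86 for c1qtnf5 and -0.83 to 0.33 for MBLAC1. The cause was not tested. Among members that kept their sign it ran from -0.31 to -0.06 for saal1, 0.14 to 0.28 for STEAP4, -0.31 to -0.0074 for c1qtnf3 and 0.0078 to 0.20 for cfhl4. It ran from -0.80 to -0.48 for c4 and from -0.72 to -0.41 for MASP1.

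With the replicate block cfhl2 was at 0.026 and MBLAC1 at -0.16, and 637 genes had an unadjusted p under 0.05 against 441 without it. The library numbers are not shown to pair the libraries: deviations from the group means correlated at 0.33, -0.11 and 0.17 for numbers 1, 2 and 3. Transgenic libraries 1 and 3 correlated best with the wild-type library of their own number, and transgenic library 2 with wild-type library 3. The planned search of promoters for motifs was not run, since no sequence table was used here. Depth limits the sparse members, such as c1qa, c1qb, C3AR1 and the C1q-domain relatives.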
